A study of Mus musculus with 21 samples.

Results

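The genes described here are 41 mouse genes whose products modify, fold, export and crosslink collagen or serve the secretory pathway it travels. They were chosen by name for these roles and matched by symbol to the Ensembl identifiers of the deposited table, so 41 of its 26852 genes are members. Earlier results of these data were known when the members and the other gene lists were chosen. Their counts beside the shares of all genes are therefore descriptive and no test of the set. All 41 passed the filter on low values (a mean of at least 10 normalized counts) that left 12976 genes to test. RNA was sequenced from Nes-low mesenchymal cells sorted out of mouse bone marrow, 21 libraries in 7 groups of 3. The hosts were Nestin+ NSG mice, an immunodeficient strain carrying a Nestin-GFP reporter. The ctrl group (replicates 373, 374 and 375) came from mice with no graft. The other groups came from unconditioned mice, 8 to 12 weeks old at transplant, given HL60 or ML1, established lines of human acute myeloid leukemia. Both lines had been made to release a lipid-permeable mCherry protein, which nearby host cells take up. Early in the disease the sort separated cells with mCherry (ch+; HL60 replicates 523, 524 and 525, ML1 replicates 538, 539 and 541) from cells without it (ch-; HL60 527, 528 and 529, ML1 543, 544 and 546). Late in the disease the cells were taken without an mCherry gate (HL60 late 397, 398 and 399, ML1 late 581, 582 and 583). The treatment field of the ML1 late libraries reads unengrafted, against their titles and time point, and the titles were followed. The extraction field of all libraries speaks of CD31+ endothelial cells, against the source and cell type fields, which say Nes-low mesenchymal cells and were followed. As a model the design has limits: each leukemia is 1 cell line, NSG hosts lack lymphocytes, GFP from a nestin transgene defines the gate, and mCherry uptake marks nearness to grafted cells, not their effect. The ch- cells came from the same marrows as the ch+ cells, but no label says which libraries share a mouse, so the fit is unpaired.

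Collagen chains enter the endoplasmic reticulum (ER) as they are made, and there prolyl and lysyl hydroxylases modify them while Serpinh1 holds the folded helix. COPII coats carry procollagen on to the Golgi, and outside the cell its propeptides are removed and lysyl oxidases join the fibrils. General chaperones and disulfide isomerases serve most secreted proteins and are the classic targets of the unfolded protein response, while osteoblasts, chondrocytes and reticular stroma are the main collagen makers of marrow and bone.

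Levels are regularized log2 values of normalized counts, and a difference of 1 is a doubling on that scale. Regularization draws values toward the mean of each gene, most at low counts. For low genes a difference can therefore be smaller than in the counts themselves. Read depth per library is not given by the file, so the precision is that of the replicates: the median SD within groups was 0.273 for genes with mean values of 8 to 10 and 0.551 for those of 4 to 6. Each comparison sets 3 libraries against 3, and a member is said to have risen or fallen only at an adjusted p under 0.1 in a limma fit of all genes tested. Taken off the log scale, the values of a library summed to 11.9 to 14.2 in ctrl, 11.2 to 14.7 in the early groups and 7.26 to 9.02 in the late groups, in units of 1000000 normalized counts. Bringing every library to the same total therefore moves the median log2 fold change of all genes to 0.58 in HL60 late and 0.84 in ML1 late against ctrl, to 0.12 in HL60 ch+ and to 0.06 in ML1 ch+. Every change given here is relative to the other genes of its library, on the scale where the all-gene median stays near 0. Each called member kept its sign relative to that shift, which a common shift fixes in advance and which is no test of the calls. In bulk samples, fewer cells of a type and less RNA per cell cannot be told apart.

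Late against ctrl asks how the marrow stroma of advanced leukemia differs from that of mice with no graft. Of the 41 members, 1 rose and 20 fell in HL60 late, and 3 rose and 23 fell in ML1 late. Over all genes tested, 6.46% rose and 7.24% fell in HL60 late, and 9.89% rose and 12.1% fell in ML1 late. These shares are also the background of the late counts given for each role below. The 25 members of the collagen roles, from prolyl 4-hydroxylase to propeptide cleavage, had 1 up and 16 down in HL60 late. In ML1 late they had 1 up and 18 down. Their median log2 fold changes were -0.55 and -0.86. The 11 general folding and unfolded protein response members had 0 calls in HL60 late and 2 upward calls in ML1 late, at medians of 0.12 and 0.03 (limma; at an unadjusted p under 0.05 the HL60 count was also 0, beside 21.3% of all genes). The 5 export and retrieval members fell in 4 of 5 cases in HL60 late and 5 of 5 in ML1 late, at medians of -0.71 and -1.12. Across the whole set the median was -0.38 in HL60 late and -0.50 in ML1 late, beside all-gene medians of 0.01 and 0.03. With every library brought to the same total, the directions split otherwise: 13 members were higher and 8 lower in HL60 late, and 21 higher and 8 lower in ML1 late, because that scaling adds its shift to every gene. On that scale the median of the members was 0.19 in HL60 late and 0.32 in ML1 late, beside all-gene medians of 0.58 and 0.84. The shares of all genes called on that scale are not given. These counts, and all rescaled counts of members and gene lists below, therefore have no background beside them. Both comparisons use the same 3 ctrl libraries. HL60 late replicate 398 read lowest of its group for many members, and without it 3 members were higher and 14 lower in HL60 late; without ctrl replicate 373, 5 were higher and 22 lower in ML1 late.

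**Figure D1:**
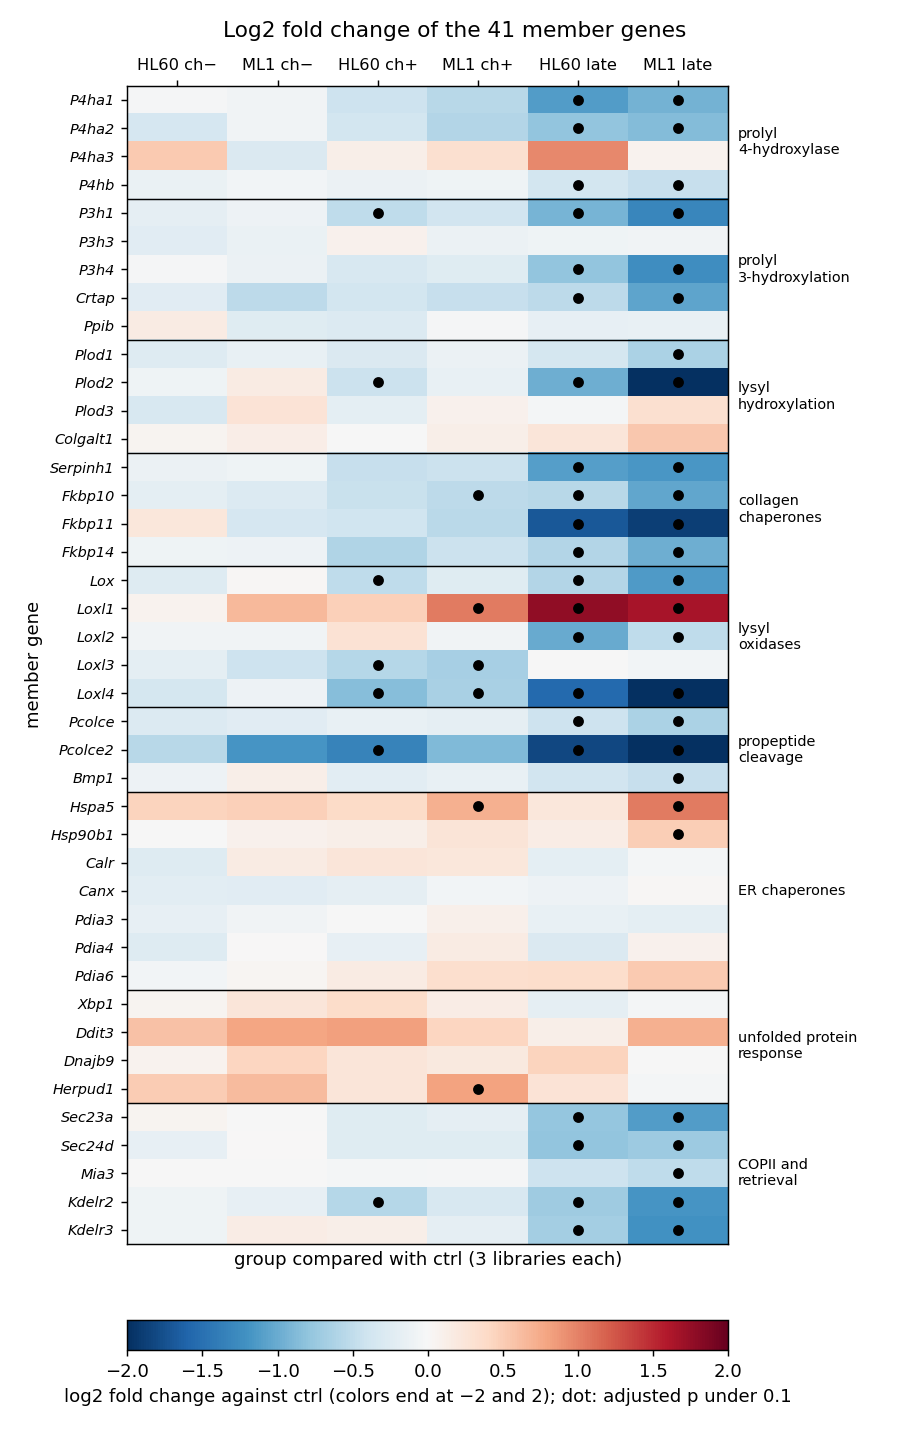
Heat map of the log2 fold change against ctrl of the 41 members (vertical axis, grouped by role) in the 6 grafted groups (horizontal axis), 3 libraries against 3, with colors ending at -2 and 2 and a dot at adjusted p under 0.1. Blue fills the late columns for most collagen hydroxylases, chaperones and export genes and Loxl1 stands out in red. With libraries brought to the same total the split is 13 higher and 8 lower in HL60 late and 21 and 8 in ML1 late. All-gene medians on that scale are 0.58 and 0.84.

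Prolyl 4-hydroxylase makes the hydroxyprolines that keep the collagen helix stable at body temperature. In both late groups 3 of its 4 members fell, the catalytic subunits P4ha1 and P4ha2 and the shared subunit P4hb, with P4ha1 at 0.463 and 0.521 of its ctrl level. Of all genes, 7.24% fell in HL60 late and 12.1% in ML1 late. P4ha1, a catalytic subunit, read 10.03, 9.52 and 10.17 in ctrl, 9.02, 8.18 and 9.18 in HL60 late and 9.26, 8.47 and 9.17 in ML1 late. P4ha1 in the early libraries read 9.83, 10.15 and 9.69 in HL60 ch-, 9.83, 9.86 and 9.81 in ML1 ch-, 9.87, 9.13 and 9.48 in HL60 ch+ and 9.45, 9.14 and 9.48 in ML1 ch+. All 6 late libraries lay below the lowest ctrl library, HL60 late 398 lowest of all, while the ch- groups overlapped ctrl and ML1 ch+ lay just under it. P4ha1 changed by -1.11 ± 0.24 (adjusted p 0.00176) in HL60 late and -0.94 ± 0.24 (adjusted p 0.00494) in ML1 late. P4ha2, another catalytic isoform, read 8.47, 7.74 and 8.37 in ctrl, 7.57, 7.31 and 7.33 in HL60 late and 7.34, 7.54 and 7.11 in ML1 late. P4ha2 in the early libraries read 7.98, 7.52 and 8.05 in HL60 ch-, 8.30, 8.01 and 8.04 in ML1 ch-, 7.47, 8.06 and 7.93 in HL60 ch+ and 7.27, 7.73 and 7.84 in ML1 ch+. Again all 6 late libraries lay below the lowest ctrl library, every early group overlapped ctrl, and the lowest early libraries, at 7.27, 7.47 and 7.52, reached into the late range. P4ha2 changed by -0.79 ± 0.26 (adjusted p 0.0433) in HL60 late and -0.86 ± 0.26 (adjusted p 0.0163) in ML1 late. P4hb, which also works as a disulfide isomerase, fell by less, at -0.37 ± 0.13 (adjusted p 0.0702) and -0.46 ± 0.13 (adjusted p 0.0121), and its HL60 late libraries overlapped ctrl. P4ha3, a minor isoform with values of 2.82 to 4.58, was not called at 0.96 ± 0.39 (adjusted p 0.128) and 0.07 ± 0.39 (adjusted p 0.940). P4ha2 lost its HL60 late call without ctrl replicates 373 and 375 or HL60 late replicates 398 and 399, at log2 fold changes of -0.65, -0.70, -0.74 and -0.75 and adjusted p of 0.170, 0.148, 0.138 and 0.129. P4hb lost its HL60 late call without ctrl replicates 373 and 375 or HL60 late replicate 398, at log2 fold changes of -0.27, -0.34 and -0.28 and adjusted p of 0.282, 0.181 and 0.315. Over the prolyl 4-hydroxylase genes the median was -0.58 in HL60 late and -0.66 in ML1 late; with every library brought to the same total the median became -0.01 in HL60 late, with 1 higher and 1 lower, and 0.16 in ML1 late, with 2 higher and 0 lower.

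A complex of P3h1, Crtap and Ppib hydroxylates single prolines and helps the chains fold, and P3h3 and P3h4 work with lysyl hydroxylase. In both late groups P3h1, P3h4 and Crtap fell, while P3h3 and the prolyl isomerase Ppib were not called. P3h1, the enzyme of the complex, read 10.79, 10.64 and 11.02 in ctrl, 10.00, 9.86 and 9.78 in HL60 late and 9.61, 9.48 and 9.43 in ML1 late. P3h1 in the early libraries read 10.53, 10.83 and 10.56 in HL60 ch-, 10.78, 10.61 and 10.77 in ML1 ch-, 10.43, 10.51 and 9.97 in HL60 ch+ and 10.40, 10.31 and 10.56 in ML1 ch+. Late values stood well under ctrl, ML1 late under HL60 late, and all 6 ch+ libraries also lay below the lowest ctrl library while the ch- groups overlapped ctrl. P3h1 changed by -0.94 ± 0.16 (adjusted p 7.29e-05) in HL60 late and -1.31 ± 0.16 (adjusted p 1.47e-07) in ML1 late. P3h4, a scaffold for lysyl hydroxylation, read 8.88, 8.67 and 8.92 in ctrl, 8.10, 7.88 and 8.14 in HL60 late and 8.00, 7.25 and 7.48 in ML1 late. P3h4 in the early libraries read 9.10, 8.50 and 8.79 in HL60 ch-, 8.68, 8.60 and 8.83 in ML1 ch-, 8.52, 8.62 and 8.40 in HL60 ch+ and 8.75, 8.51 and 8.48 in ML1 ch+. The late libraries were again the low ones, HL60 ch+ lay just under ctrl, and the remaining early groups overlapped it. P3h4 changed by -0.78 ± 0.21 (adjusted p 0.0129) in HL60 late and -1.25 ± 0.21 (adjusted p 4.62e-05) in ML1 late. Crtap, the helper protein of P3h1, changed by -0.53 ± 0.18 (adjusted p 0.0557) in HL60 late and -1.06 ± 0.18 (adjusted p 4.31e-05) in ML1 late. P3h3 stood at -0.09 and -0.07 and Ppib at -0.17 and -0.15, with late libraries inside or across the ctrl range. Crtap lost its HL60 late call without ctrl replicate 374 or HL60 late replicates 398 and 399, at log2 fold changes of -0.42, -0.46 and -0.50 and adjusted p of 0.234, 0.204 and 0.160. Over these prolyl 3-hydroxylase complex genes the median was -0.53 and -1.06; with every library brought to the same total the median became 0.04 in HL60 late, with 0 higher and 1 lower, and -0.24 in ML1 late, with 2 higher and 2 lower.

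Lysyl hydroxylases and the galactosyltransferase Colgalt1 prepare lysines for glycosylation and crosslinks. Plod2 fell in both late groups and further in ML1 late, Plod1 fell in ML1 late, and Plod3 and Colgalt1 were not called in either. Plod2, the hydroxylase of the telopeptides, read 12.53, 11.98 and 12.16 in ctrl, 11.27, 11.28 and 11.21 in HL60 late and 10.43, 10.17 and 10.12 in ML1 late. Plod2 in the early libraries read 12.17, 12.19 and 12.05 in HL60 ch-, 12.38, 12.43 and 12.35 in ML1 ch-, 11.78, 11.78 and 11.81 in HL60 ch+ and 12.05, 11.97 and 12.22 in ML1 ch+. The 3 groups formed 3 separate levels, ctrl on top, HL60 late below it and ML1 late lowest; HL60 ch+ lay below ctrl and the remaining early groups overlapped it. Plod2 changed by -0.97 ± 0.13 (adjusted p 3.13e-06) in HL60 late and -1.98 ± 0.13 (adjusted p 5.55e-13) in ML1 late. Plod1, the hydroxylase of the helical region, read 9.66, 9.90 and 9.45 in ctrl, 9.43, 9.24 and 9.28 in HL60 late and 9.37, 8.71 and 9.02 in ML1 late. Plod1 in the early libraries read 9.41, 9.43 and 9.41 in HL60 ch-, 9.22, 9.59 and 9.78 in ML1 ch-, 9.74, 9.06 and 9.35 in HL60 ch+ and 9.50, 9.22 and 9.93 in ML1 ch+. Late libraries lay below ctrl by a narrow margin in HL60, HL60 ch- did so too, and the remaining early groups overlapped ctrl. Plod1 passed the test in ML1 late at -0.64 ± 0.21 (adjusted p 0.0300) and not in HL60 late at -0.35 ± 0.21 (adjusted p 0.354); the difference between the late groups, 0.29 ± 0.21 (adjusted p 0.761), was not called. Plod3, which hydroxylates and glycosylates, stood at -0.05 and 0.32, and Colgalt1 at 0.25 and 0.53. Plod1 lost its ML1 late call without ctrl replicate 374 or ML1 late replicate 582, at log2 fold changes of -0.52 and -0.48 and adjusted p of 0.139 and 0.194. Over these lysyl hydroxylation and glycosylation genes the median was -0.20 and -0.16, and its direction turned under the other scaling: with every library brought to the same total the median became 0.37 in HL60 late, with 2 higher and 1 lower, and 0.66 in ML1 late, with 2 higher and 1 lower.

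Serpinh1 (HSP47) binds folded procollagen, and Fkbp10 and Fkbp14 are prolyl isomerases of the ER that act on it. All 4 members of this role fell in both late groups, Fkbp11 the furthest, where 7.24% of all genes fell in HL60 late and 12.1% in ML1 late. Fkbp11, a membrane-anchored relative of the other isomerases, read 8.01, 8.32 and 8.25 in ctrl, 7.16, 5.77 and 6.59 in HL60 late and 6.47, 6.15 and 6.32 in ML1 late. Fkbp11 in the early libraries read 8.65, 8.61 and 8.02 in HL60 ch-, 7.74, 7.75 and 8.07 in ML1 ch-, 8.31, 7.88 and 7.22 in HL60 ch+ and 7.64, 7.80 and 7.55 in ML1 ch+. Late libraries were the lowest in every case, HL60 late 398 the extreme, ML1 ch+ lay under ctrl and the remaining early groups overlapped it. Fkbp11 changed by -1.69 ± 0.31 (adjusted p 0.000229) in HL60 late and -1.88 ± 0.31 (adjusted p 2.45e-05) in ML1 late. Serpinh1, the collagen-specific chaperone, read 13.05, 12.88 and 13.24 in ctrl, 12.31, 11.30 and 12.22 in HL60 late and 12.09, 11.53 and 12.05 in ML1 late. Serpinh1 in the early libraries read 12.91, 13.16 and 12.75 in HL60 ch-, 13.03, 12.87 and 13.00 in ML1 ch-, 12.82, 12.43 and 12.54 in HL60 ch+ and 12.59, 12.62 and 12.68 in ML1 ch+. Serpinh1 was stepped: ctrl and ch- overlapped, both ch+ groups lay under ctrl, and the late libraries lay under the ch+ ones. Serpinh1 changed by -1.11 ± 0.18 (adjusted p 7.87e-05) in HL60 late and -1.16 ± 0.18 (adjusted p 1.66e-05) in ML1 late. Fkbp10 changed by -0.55 ± 0.17 (adjusted p 0.0316) and -1.04 ± 0.17 (adjusted p 2.45e-05), and Fkbp14 by -0.58 ± 0.21 (adjusted p 0.0828) and -0.97 ± 0.21 (adjusted p 0.00101), in HL60 and ML1 late. Fkbp10 lost its HL60 late call without ctrl replicates 373 and 375 or HL60 late replicate 398, at log2 fold changes of -0.45, -0.51 and -0.45 and adjusted p of 0.151, 0.109 and 0.172. Fkbp14 lost its HL60 late call without ctrl replicates 373 and 375 or HL60 late replicates 397 and 398, at log2 fold changes of -0.62, -0.48, -0.63 and -0.37 and adjusted p of 0.114, 0.264, 0.117 and 0.432. Over these chaperones and isomerases the median was -0.84 and -1.10 and stayed negative when rescaled: with every library brought to the same total the median became -0.27 in HL60 late, with 0 higher and 2 lower, and -0.29 in ML1 late, with 0 higher and 1 lower.

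Lysyl oxidases convert lysines outside the cell so that collagen and elastin crosslink. The family did not move as one: Loxl1 rose in both late groups, Lox, Loxl2 and Loxl4 fell in both, and Loxl3 was not called in either. Loxl4, a family member of the Loxl2 type, read 9.74, 9.53 and 9.61 in ctrl, 7.79, 8.25 and 8.20 in HL60 late and 7.38, 6.89 and 7.10 in ML1 late. Loxl4 in the early libraries read 9.57, 9.01 and 9.24 in HL60 ch-, 9.23, 9.53 and 9.82 in ML1 ch-, 8.78, 8.66 and 8.87 in HL60 ch+ and 8.87, 9.01 and 9.04 in ML1 ch+. The groups stepped down from ctrl to ch+ to HL60 late to ML1 late with no overlap between these levels, and the ch- groups overlapped ctrl. Loxl4 changed by -1.55 ± 0.20 (adjusted p 2.17e-06) in HL60 late and -2.51 ± 0.20 (adjusted p 6.02e-11) in ML1 late. Loxl1, the oxidase known for elastic fibers, read 9.53, 8.63 and 8.86 in ctrl, 10.78, 10.80 and 10.77 in HL60 late and 10.66, 10.41 and 10.88 in ML1 late. Loxl1 in the early libraries read 9.05, 9.18 and 9.01 in HL60 ch-, 9.14, 10.22 and 9.61 in ML1 ch-, 9.44, 9.26 and 9.72 in HL60 ch+ and 10.02, 10.06 and 10.06 in ML1 ch+. The order was the opposite, with all late libraries above every other library, ML1 ch+ above ctrl, and HL60 ch+ and both ch- groups overlapping ctrl. Loxl1 changed by 1.78 ± 0.22 (adjusted p 6.73e-07) in HL60 late and 1.65 ± 0.22 (adjusted p 8.60e-07) in ML1 late. Lox, the founding enzyme, changed by -0.59 ± 0.11 (adjusted p 0.000313) and -1.13 ± 0.11 (adjusted p 3.33e-09), and Loxl2 by -1.01 ± 0.16 (adjusted p 3.52e-05) and -0.51 ± 0.16 (adjusted p 0.0222). Loxl3 stood at -0.01 and -0.05 in the late groups. Loxl2 lost its ML1 late call without ctrl replicate 375 or ML1 late replicate 582, at log2 fold changes of -0.40 and -0.34 and adjusted p of 0.128 and 0.200. Over the lysyl oxidases the median was -0.59 and -0.51, and it turned in ML1 late under the other scaling: with every library brought to the same total the median became -0.02 in HL60 late, with 2 higher and 2 lower, and 0.31 in ML1 late, with 3 higher and 2 lower.

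Bmp1 cuts the C-propeptide off procollagen, and Pcolce and Pcolce2 speed that cut. Pcolce2 had the largest log2 fold change of any member in ML1 late. In HL60 late its -1.82 ± 0.44 and the 1.78 ± 0.22 of Loxl1 differed in size by less than their SE. Pcolce fell in both late groups by a smaller step, and Bmp1 fell in ML1 late. Pcolce2, an enhancer of the cut, read 9.22, 9.12 and 8.78 in ctrl, 7.51, 7.61 and 6.55 in HL60 late and 3.95, 4.69 and 5.95 in ML1 late. Pcolce2 in the early libraries read 9.32, 8.79 and 7.37 in HL60 ch-, 7.86, 7.56 and 8.14 in ML1 ch-, 7.52, 8.39 and 7.18 in HL60 ch+ and 7.52, 8.31 and 8.63 in ML1 ch+. HL60 late lay under ctrl and ML1 late lay far under HL60 late; both ch+ groups and ML1 ch- also lay below ctrl, and HL60 ch- overlapped it. Pcolce2 changed by -1.82 ± 0.44 (adjusted p 0.00534) in HL60 late and -4.18 ± 0.44 (adjusted p 1.61e-08) in ML1 late. Pcolce, the more abundant enhancer here, read 12.26, 12.33 and 12.36 in ctrl, 11.98, 11.78 and 11.95 in HL60 late and 11.80, 11.52 and 11.70 in ML1 late. Pcolce in the early libraries read 12.06, 12.06 and 11.99 in HL60 ch-, 12.09, 12.04 and 12.13 in ML1 ch-, 12.34, 12.22 and 11.95 in HL60 ch+ and 12.01, 12.27 and 12.13 in ML1 ch+. The late libraries and all 6 ch- libraries lay below ctrl, by under 1 unit in each, and the ch+ groups overlapped ctrl. Pcolce changed by -0.41 ± 0.12 (adjusted p 0.0239) in HL60 late and -0.64 ± 0.12 (adjusted p 0.000187) in ML1 late. Bmp1 stood at -0.38 ± 0.15 (adjusted p 0.126) in HL60 late, not called, and -0.46 ± 0.15 (adjusted p 0.0311) in ML1 late. The difference between the late groups was not called for Bmp1 by limma, at 0.09 ± 0.15 (adjusted p 0.964). Pcolce lost its HL60 late call without HL60 late replicate 398, at a log2 fold change of -0.35 and adjusted p of 0.127. Bmp1 lost its ML1 late call without ctrl replicate 375 or ML1 late replicate 583, at log2 fold changes of -0.33 and -0.43 and adjusted p of 0.200 and 0.103. Over these propeptide cleavage genes the median was -0.41 and -0.64 and its direction turned under the other scaling: with every library brought to the same total the median became 0.16 in HL60 late, with 0 higher and 1 lower, and 0.18 in ML1 late, with 1 higher and 1 lower.

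Hspa5 (BiP), Hsp90b1 (GRP94), the lectins Calr and Canx, and the disulfide isomerases Pdia3, Pdia4 and Pdia6 fold secreted proteins in general. Hspa5 and Hsp90b1 rose in ML1 late, and none of the 7 was called in HL60 late by limma, where the count at an unadjusted p under 0.05 was also 0, beside 21.3% of all genes. Hspa5, the Hsp70 of the ER, read 12.30, 12.16 and 12.69 in ctrl, 12.63, 12.26 and 12.93 in HL60 late and 13.22, 13.43 and 13.61 in ML1 late. Hspa5 in the early libraries read 12.98, 12.60 and 12.92 in HL60 ch-, 13.02, 12.81 and 12.76 in ML1 ch-, 12.88, 12.61 and 12.82 in HL60 ch+ and 12.84, 13.31 and 13.11 in ML1 ch+. ML1 late was the highest group and, with ML1 ch+ and ML1 ch-, lay above ctrl, while all 3 HL60 groups overlapped ctrl. Hspa5 changed by 1.04 ± 0.16 (adjusted p 1.21e-05) in ML1 late and stood at 0.22 ± 0.16 (adjusted p 0.473) in HL60 late. Pdia6, a disulfide isomerase, read 9.75, 8.99 and 9.19 in ctrl, 10.00, 9.06 and 9.96 in HL60 late and 9.91, 9.86 and 9.76 in ML1 late. Pdia6 in the early libraries read 9.37, 8.88 and 9.50 in HL60 ch-, 9.35, 9.45 and 9.24 in ML1 ch-, 9.51, 9.33 and 9.59 in HL60 ch+ and 9.83, 9.62 and 9.48 in ML1 ch+. ML1 late lay above ctrl by a hair, HL60 late spread across the ctrl range with replicate 398 low, and every early group overlapped ctrl. Pdia6 was not called, at 0.36 ± 0.22 (adjusted p 0.377) and 0.53 ± 0.22 (adjusted p 0.1002). Hsp90b1 changed by 0.49 ± 0.18 (adjusted p 0.0570) in ML1 late and stood at 0.16 in HL60 late. The difference between the late groups (HL60 minus ML1) was called by limma for Hspa5, at -0.81 ± 0.16 (adjusted p 0.00153). It was not called for Hsp90b1, at -0.34 ± 0.18 (adjusted p 0.5455). The 4 others were not called, with Calr at -0.20 and -0.04, Canx at -0.10 and 0.03, Pdia3 at -0.14 and -0.20, and Pdia4 at -0.29 and 0.09. Hsp90b1 lost its ML1 late call without ctrl replicates 374 and 375 or ML1 late replicates 581 and 583, at log2 fold changes of 0.42, 0.45, 0.47 and 0.43 and adjusted p of 0.184, 0.148, 0.141 and 0.185. Over these chaperones and disulfide isomerases the median was -0.10 and 0.09; with every library brought to the same total the median became 0.47 in HL60 late, with 5 higher and 0 lower, and 0.91 in ML1 late, with 7 higher and 0 lower.

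Xbp1 is the transcription factor spliced by Ern1, Ddit3 (CHOP) lies on the Eif2ak3 arm, Dnajb9 is a cochaperone of Hspa5, and Herpud1 works in ER-associated degradation. None of these 4 was called in either late group by limma, and at an unadjusted p under 0.05 the count was 0 in both, beside 21.3% and 28.2% of all genes in HL60 and ML1 late. Xbp1 read 10.06, 9.98 and 9.81 in ctrl, 9.83, 9.60 and 9.88 in HL60 late and 9.86, 9.89 and 10.00 in ML1 late. Xbp1 in the early libraries read 10.08, 9.92 and 10.02 in HL60 ch-, 10.43, 9.97 and 10.18 in ML1 ch-, 10.25, 10.34 and 10.36 in HL60 ch+ and 10.35, 9.77 and 10.17 in ML1 ch+. HL60 ch+ stood above ctrl, and every remaining group overlapped ctrl. Xbp1 stood at -0.18 ± 0.16 (adjusted p 0.578) in HL60 late and -0.03 ± 0.16 (adjusted p 0.925) in ML1 late. Ddit3 read 5.44, 5.46 and 6.80 in ctrl, 6.15, 5.86 and 6.05 in HL60 late and 6.79, 6.45 and 6.61 in ML1 late. Ddit3 in the early libraries read 7.18, 6.10 and 6.18 in HL60 ch-, 7.03, 7.03 and 6.02 in ML1 ch-, 7.37, 6.35 and 6.44 in HL60 ch+ and 6.01, 5.96 and 7.03 in ML1 ch+. Replicates spread by more than 1 unit in ctrl and in several early groups, and all groups overlapped ctrl. Ddit3 stood at 0.12 ± 0.42 (adjusted p 0.918) and 0.72 ± 0.42 (adjusted p 0.278). Dnajb9 read 8.23, 7.70 and 8.68 in ctrl, 8.38, 8.64 and 8.93 in HL60 late and 8.03, 7.97 and 8.60 in ML1 late. Dnajb9 in the early libraries read 8.14, 8.59 and 8.09 in HL60 ch-, 8.61, 8.70 and 8.61 in ML1 ch-, 8.28, 8.52 and 8.55 in HL60 ch+ and 8.59, 7.79 and 8.81 in ML1 ch+. All groups overlapped ctrl. Dnajb9 stood at 0.44 ± 0.26 (adjusted p 0.357) and -0.01 ± 0.26 (adjusted p 0.989), and Herpud1 at 0.28 and -0.05. Over these unfolded protein response genes the median was 0.20 and -0.02; with every library brought to the same total the median became 0.77 in HL60 late, with 3 higher and 0 lower, and 0.79 in ML1 late, with 4 higher and 0 lower.

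Sec23a and Sec24d form the inner COPII coat, Mia3 (TANGO1) loads procollagen, and Kdelr2 and Kdelr3 return escaped ER proteins. All 5 fell in ML1 late and 4 of 5 in HL60 late, Mia3 being the exception, where 12.1% and 7.24% of all genes fell. Kdelr3, a KDEL receptor, read 9.04, 8.64 and 8.94 in ctrl, 8.41, 7.89 and 8.26 in HL60 late and 7.74, 7.37 and 7.86 in ML1 late. Kdelr3 in the early libraries read 8.74, 8.51 and 9.11 in HL60 ch-, 9.08, 9.18 and 8.81 in ML1 ch-, 9.11, 8.91 and 8.93 in HL60 ch+ and 8.13, 9.01 and 8.96 in ML1 ch+. Late libraries lay below ctrl and ML1 late below HL60 late, and all early groups overlapped ctrl. Kdelr3 changed by -0.68 ± 0.23 (adjusted p 0.0577) in HL60 late and -1.21 ± 0.23 (adjusted p 0.000234) in ML1 late. Kdelr2, the more abundant receptor, read 12.11, 11.99 and 12.03 in ctrl, 11.50, 11.07 and 11.42 in HL60 late and 10.86, 10.76 and 10.98 in ML1 late. Kdelr2 in the early libraries read 12.00, 11.89 and 11.98 in HL60 ch-, 11.95, 11.73 and 11.94 in ML1 ch-, 11.49, 11.59 and 11.35 in HL60 ch+ and 11.57, 11.82 and 11.77 in ML1 ch+. Only HL60 ch- overlapped ctrl among the 6 grafted groups; the late groups had the lowest means, HL60 late overlapped HL60 ch+, and ML1 late lay under HL60 late. Kdelr2 changed by -0.71 ± 0.13 (adjusted p 0.000212) in HL60 late and -1.18 ± 0.13 (adjusted p 2.95e-08) in ML1 late. Sec23a changed by -0.77 ± 0.16 (adjusted p 0.00105) and -1.12 ± 0.16 (adjusted p 2.79e-06), and Sec24d by -0.79 ± 0.18 (adjusted p 0.00377) and -0.73 ± 0.18 (adjusted p 0.00465). Mia3 passed the test in ML1 late at -0.50 ± 0.17 (adjusted p 0.0357) and stood at -0.42 ± 0.17 (adjusted p 0.124) in HL60 late; the difference between them was not called, at 0.08 ± 0.17 (adjusted p 0.970). Kdelr3 lost its HL60 late call without ctrl replicates 373 and 375 or HL60 late replicates 398 and 399, at log2 fold changes of -0.60, -0.65, -0.54 and -0.72 and adjusted p of 0.170, 0.142, 0.263 and 0.104. Mia3 lost its ML1 late call without ctrl replicates 373 and 375 or ML1 late replicate 582, at log2 fold changes of -0.45, -0.40 and -0.47 and adjusted p of 0.113, 0.165 and 0.114. Over these COPII export and ER retrieval genes the median was -0.71 and -1.12 and stayed negative when rescaled: with every library brought to the same total the median became -0.14 in HL60 late, with 0 higher and 0 lower, and -0.30 in ML1 late, with 0 higher and 1 lower.

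**Figure D2:**
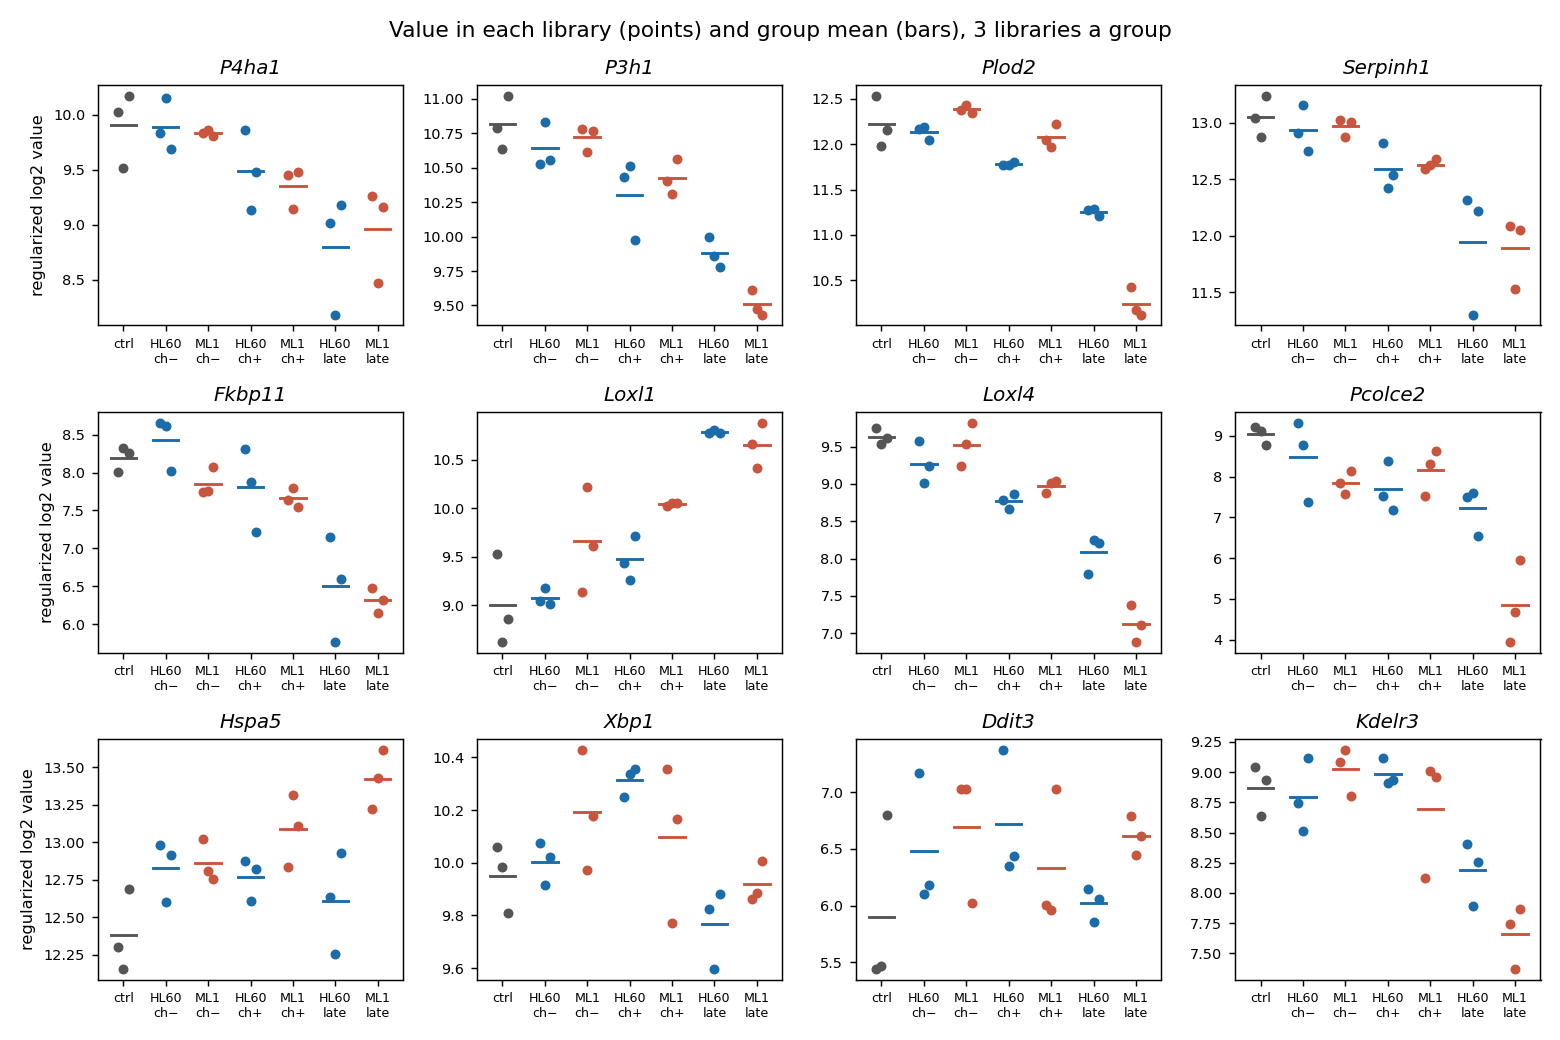
Regularized log2 values (vertical axis) of 12 members in the 7 groups (horizontal axis), with a point for each of the 3 libraries of a group and a bar at the group mean. The late points of P4ha1, P3h1, Plod2, Serpinh1, Fkbp11, Loxl4, Pcolce2 and Kdelr3 lie below all ctrl points on this scale and those of Loxl1 above, while every grafted group of Ddit3 overlaps ctrl.

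Early ch+ against ctrl shows stroma next to the leukemia before it has filled the marrow. In HL60 ch+ 0 of the 41 members rose and 7 fell, where 2.87% of all genes rose and 2.46% fell; in ML1 ch+ 3 rose and 3 fell, where 3.47% rose and 3.22% fell. The fall in HL60 ch+ took in P3h1, Plod2, Lox, Loxl3, Loxl4 and Pcolce2 among the collagen modifiers and the retrieval receptor Kdelr2. ML1 ch+ rose in the oxidase Loxl1, the chaperone Hspa5 and the degradation factor Herpud1 and fell in the isomerase Fkbp10 and the oxidases Loxl3 and Loxl4. The set's median was -0.20 in HL60 ch+ and -0.12 in ML1 ch+, beside all-gene medians of 0.03 and 0.01. Pcolce2 changed by -1.34 ± 0.44 (adjusted p 0.0945) in HL60 ch+, the largest step there, and stood at -0.88 ± 0.44 (adjusted p 0.316) in ML1 ch+, not called. Loxl4, called in both, changed by -0.86 ± 0.20 (adjusted p 0.0117) and -0.66 ± 0.20 (adjusted p 0.0593). Loxl3, also called in both, changed by -0.58 ± 0.18 (adjusted p 0.0713) and -0.66 ± 0.18 (adjusted p 0.0268). In HL60 ch+ the others were P3h1 at -0.51 ± 0.16 (adjusted p 0.0646), Plod2 at -0.44 ± 0.13 (adjusted p 0.0583), Lox at -0.51 ± 0.11 (adjusted p 0.00544) and Kdelr2 at -0.56 ± 0.13 (adjusted p 0.00856). In ML1 ch+ they were Loxl1 at 1.04 ± 0.22 (adjusted p 0.00281), Hspa5 at 0.70 ± 0.16 (adjusted p 0.00682), Herpud1 at 0.81 ± 0.26 (adjusted p 0.0681) and Fkbp10 at -0.52 ± 0.17 (adjusted p 0.0780). With libraries brought to the same total, 0 members were higher and 3 lower in HL60 ch+, and 3 higher and 1 lower in ML1 ch+. The shares of all genes on that scale are not given.

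Single libraries decided many of these early calls. In HL60 ch+ the count of members called was 4 without ctrl replicate 373 (1 higher and 3 lower), 3 without HL60 ch+ replicate 525, and 5 to 7 without each of the others. In ML1 ch+ it was 2 without ctrl replicate 373 or 375 (both higher), 3 without ML1 ch+ replicate 539 (all higher), and 4 to 6 without each of the others. Pcolce2 lost its HL60 ch+ call without ctrl replicates 373, 374 and 375 or HL60 ch+ replicates 523 and 525, at log2 fold changes of -1.25, -1.30, -1.47, -1.26 and -1.08 and adjusted p of 0.210, 0.196, 0.121, 0.225 and 0.308. Loxl3 lost its HL60 ch+ call without ctrl replicates 373 and 375 or HL60 ch+ replicates 523, 524 and 525, at log2 fold changes of -0.43, -0.47, -0.59, -0.53 and -0.61 and adjusted p of 0.283, 0.243, 0.145, 0.194 and 0.117. P3h1 lost its HL60 ch+ call without ctrl replicates 373 and 375 or HL60 ch+ replicate 525, at log2 fold changes of -0.52, -0.41 and -0.35 and adjusted p of 0.115, 0.242 and 0.328. Plod2 lost its HL60 ch+ call without ctrl replicate 373 or HL60 ch+ replicates 523, 524 and 525, at log2 fold changes of -0.28, -0.43, -0.43 and -0.45 and adjusted p of 0.302, 0.144, 0.137 and 0.113. Herpud1 lost its ML1 ch+ call without ctrl replicates 373 and 375 or ML1 ch+ replicates 538 and 541, at log2 fold changes of 0.80, 0.63, 0.87 and 0.56 and adjusted p of 0.135, 0.262, 0.102 and 0.316. Fkbp10 lost its ML1 ch+ call without ctrl replicates 373 and 375 or ML1 ch+ replicates 539 and 541, at log2 fold changes of -0.41, -0.48, -0.45 and -0.51 and adjusted p of 0.267, 0.205, 0.242 and 0.159. Loxl3 lost its ML1 ch+ call without ctrl replicates 373 and 375 or ML1 ch+ replicate 539, at log2 fold changes of -0.51, -0.56 and -0.55 and adjusted p of 0.158, 0.127 and 0.151. Loxl4 lost its ML1 ch+ call without ctrl replicates 373 and 375 or ML1 ch+ replicates 538 and 539, at log2 fold changes of -0.60, -0.66, -0.61 and -0.68 and adjusted p of 0.166, 0.116, 0.158 and 0.122. The calls of Loxl4, Lox and Kdelr2 in HL60 ch+ and of Loxl1 and Hspa5 in ML1 ch+ held with each library left out in turn.

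Early ch- against ctrl shows stroma of the same early marrow without the mCherry mark. By limma 0 of the 41 members were called in HL60 ch-, where 0.894% of all genes rose and 0.678% fell, and 0 in ML1 ch-, where 1.42% rose and 0.925% fell. At an unadjusted p under 0.05 there were 3 members in HL60 ch- (1 higher and 2 lower) beside 10.7% of all genes, and 6 in ML1 ch- (3 in each direction) beside 12.7%. The medians were -0.09 and -0.06. Pcolce2 was the lowest in ML1 ch-, at -1.19 ± 0.44 (adjusted p 0.212), with its 3 libraries below ctrl, and stood at -0.55 ± 0.44 (adjusted p 0.716) in HL60 ch-. Hspa5 stood at 0.45 ± 0.16 (adjusted p 0.243) and 0.48 ± 0.16 (adjusted p 0.153), Ddit3 at 0.58 ± 0.42 (adjusted p 0.668) and 0.79 ± 0.42 (adjusted p 0.445), and Serpinh1 at -0.11 ± 0.18 (adjusted p 0.876) and -0.09 ± 0.18 (adjusted p 0.908). The ML1 ch- count became 1 without ctrl replicate 373, ctrl replicate 375 or ML1 ch- replicate 543 (1 higher each) and without ctrl replicate 374 (1 lower).

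Early ch+ against ch- compares marked with unmarked stroma of the same time point, without ctrl libraries. In HL60, 0 members rose and 1 fell, Kdelr2 at -0.48 ± 0.13 (adjusted p 0.0343), where 2.27% of all genes rose and 1.66% fell. In ML1, limma called 0 members, where 2.34% rose and 1.91% fell; at an unadjusted p under 0.05 there were 3, all lower, beside 13.8% of all genes. The medians were -0.06 and -0.10. Loxl4 stood at -0.50 ± 0.20 (adjusted p 0.255) and -0.55 ± 0.20 (adjusted p 0.167) and Plod2 at -0.35 ± 0.13 (adjusted p 0.198) and -0.31 ± 0.13 (adjusted p 0.263), with ch+ libraries under ch- libraries in both lines and neither called. All ch+ libraries lay below all ch- libraries for 7 members in HL60 and 10 in ML1, where 8.71% and 8.55% of all genes did so, and above them for 5 and 2, where 8.54% and 7.21% did; P3h1, Plod2, Lox, Loxl3 and Loxl4 lay below in both lines. Kdelr2 lost its HL60 ch+ against ch- call without HL60 ch- replicate 527 or HL60 ch+ replicate 525, at log2 fold changes of -0.46 and -0.42 and adjusted p of 0.114 and 0.160. Whether the ch+ against ch- step differed between the lines was tested as an interaction: limma called 0 members, where 0.00771% of all genes were higher in HL60 and 0.0% lower, and 1 member had an unadjusted p under 0.05 beside 6.4% of all genes.

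Late against early ch+ compares advanced disease with leukemia-near stroma of the early stage, again without ctrl libraries. In HL60, 2 members rose and 10 fell, where 4.25% of all genes rose and 5.95% fell; in ML1, 2 rose and 20 fell, where 7.07% rose and 9.83% fell. The oxidases Loxl1 and Loxl3 were the 2 that rose in each line. Loxl1 changed by 1.31 ± 0.22 (adjusted p 9.61e-05) in HL60 and 0.61 ± 0.22 (adjusted p 0.0622) in ML1, and Loxl3 by 0.57 ± 0.18 (adjusted p 0.0466) and 0.61 ± 0.18 (adjusted p 0.0191). The chaperone Serpinh1 changed by -0.65 ± 0.18 (adjusted p 0.0252) and -0.74 ± 0.18 (adjusted p 0.00488), and Fkbp11 by -1.30 ± 0.31 (adjusted p 0.00544) and -1.35 ± 0.31 (adjusted p 0.00202). Pcolce2 changed by -3.29 ± 0.44 (adjusted p 1.52e-06) in ML1 and stood at -0.47 ± 0.44 (adjusted p 0.664) in HL60. The others that fell in HL60 were P4ha1 at -0.70, Plod2 at -0.53, Loxl2 at -1.30, Loxl4 at -0.69, Xbp1 at -0.55, Sec23a at -0.53, Sec24d at -0.55 and Kdelr3 at -0.80. The others that fell in ML1 were P4hb at -0.37, P3h1 at -0.92, P3h4 at -1.0, Crtap at -0.59, Plod2 at -1.84, Fkbp10 at -0.52, Fkbp14 at -0.54, Lox at -0.89, Loxl2 at -0.44, Loxl4 at -1.85, Pcolce at -0.46, Herpud1 at -0.86, Sec23a at -0.94, Sec24d at -0.48, Mia3 at -0.47, Kdelr2 at -0.85 and Kdelr3 at -1.04. The medians were -0.17 and -0.39. With libraries brought to the same total the split was 13 higher and 2 lower in HL60 and 20 higher and 3 lower in ML1, under all-gene shifts of 0.47 and 0.79. The shares of all genes called on that scale are not given.

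Several of these calls rested on single libraries. In HL60 the count of members called was 7 without HL60 ch+ replicate 523 (2 higher and 5 lower) and 6 without HL60 late replicate 398 (2 higher and 4 lower), and 10 to 12 without each of the others. In ML1 it ranged from 15 to 19. Loxl3 lost its HL60 late against ch+ call without HL60 ch+ replicate 524 or HL60 late replicates 397 and 399, at log2 fold changes of 0.53, 0.59 and 0.52 and adjusted p of 0.150, 0.103 and 0.164. P4ha1 lost its HL60 late against ch+ call without HL60 ch+ replicates 523 and 525 or HL60 late replicate 398, at log2 fold changes of -0.51, -0.70 and -0.39 and adjusted p of 0.334, 0.146 and 0.480. Serpinh1 lost its HL60 late against ch+ call without HL60 ch+ replicate 523 or HL60 late replicate 398, at log2 fold changes of -0.54 and -0.33 and adjusted p of 0.143 and 0.323. Loxl4 lost its HL60 late against ch+ call without HL60 ch+ replicate 525 or HL60 late replicate 397, at log2 fold changes of -0.64 and -0.54 and adjusted p of 0.104 and 0.192. Xbp1 lost its HL60 late against ch+ call without HL60 late replicate 398, at a log2 fold change of -0.46 and adjusted p of 0.160. Sec23a lost its HL60 late against ch+ call without HL60 ch+ replicate 523 or HL60 late replicate 398, at log2 fold changes of -0.43 and -0.44 and adjusted p of 0.175 and 0.185. Sec24d lost its HL60 late against ch+ call without HL60 ch+ replicates 523 and 524 or HL60 late replicates 398 and 399, at log2 fold changes of -0.50, -0.52, -0.46 and -0.57 and adjusted p of 0.197, 0.178, 0.260 and 0.131. Kdelr3 lost its HL60 late against ch+ call without HL60 ch+ replicate 523 or HL60 late replicate 398, at log2 fold changes of -0.73 and -0.65 and adjusted p of 0.112 and 0.174. Loxl1 lost its ML1 late against ch+ call without ML1 ch+ replicates 538, 539 and 541 or ML1 late replicates 581 and 583, at log2 fold changes of 0.60, 0.61, 0.61, 0.60 and 0.49 and adjusted p of 0.126, 0.119, 0.123, 0.139 and 0.253. Loxl3 lost its ML1 late against ch+ call without ML1 ch+ replicate 539 or ML1 late replicate 583, at log2 fold changes of 0.49 and 0.53 and adjusted p of 0.114 and 0.113. P4hb lost its ML1 late against ch+ call without ML1 ch+ replicates 538 and 539 or ML1 late replicates 582 and 583, at log2 fold changes of -0.37, -0.33, -0.31 and -0.36 and adjusted p of 0.106, 0.177, 0.212 and 0.153. Crtap lost its ML1 late against ch+ call without ML1 ch+ replicate 539 or ML1 late replicate 582, at log2 fold changes of -0.50 and -0.44 and adjusted p of 0.119 and 0.182. Fkbp10 lost its ML1 late against ch+ call without ML1 ch+ replicate 538 or ML1 late replicate 582, at log2 fold changes of -0.44 and -0.42 and adjusted p of 0.143 and 0.184. Fkbp14 lost its ML1 late against ch+ call without ML1 ch+ replicates 539 and 541 or ML1 late replicates 581, 582 and 583, at log2 fold changes of -0.36, -0.55, -0.43, -0.56 and -0.62 and adjusted p of 0.387, 0.161, 0.329, 0.162 and 0.115. Loxl2 lost its ML1 late against ch+ call without ML1 ch+ replicate 541 or ML1 late replicate 582, at log2 fold changes of -0.31 and -0.27 and adjusted p of 0.314 and 0.400. Herpud1 lost its ML1 late against ch+ call without ML1 ch+ replicate 541, at a log2 fold change of -0.61 and adjusted p of 0.182. Sec24d lost its ML1 late against ch+ call without ML1 ch+ replicates 538 and 541 or ML1 late replicates 581, 582 and 583, at log2 fold changes of -0.30, -0.41, -0.53, -0.45 and -0.45 and adjusted p of 0.379, 0.256, 0.114, 0.209 and 0.222. Mia3 lost its ML1 late against ch+ call without ML1 ch+ replicates 538 and 541 or ML1 late replicates 581, 582 and 583, at log2 fold changes of -0.36, -0.46, -0.48, -0.44 and -0.49 and adjusted p of 0.243, 0.141, 0.127, 0.172 and 0.115. Sec24d kept its call without ML1 ch+ replicate 539, at the larger value of -0.72. The HL60 calls of Loxl1, Plod2, Fkbp11 and Loxl2 and the ML1 calls of P3h1, P3h4, Plod2, Serpinh1, Fkbp11, Lox, Loxl4, Pcolce, Pcolce2, Sec23a, Kdelr2 and Kdelr3 held with each library left out in turn.

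HL60 late against ML1 late compares the leukemias with each other in advanced disease. The late libraries of each line carry their own run of replicate numbers. Line therefore cannot be told apart from whatever else differed between these sets of mice. Of the 41 members 5 were higher in HL60 late and 2 lower, where 3.16% of all genes were higher and 0.932% lower. The hydroxylase Plod2 was higher by 1.01 ± 0.13 (adjusted p 2.62e-06), the cleavage enhancer Pcolce2 by 2.36 ± 0.44 (adjusted p 0.000765), the oxidases Loxl4 by 0.96 ± 0.20 (adjusted p 0.00305) and Lox by 0.54 ± 0.11 (adjusted p 0.00232), and the receptor Kdelr2 by 0.46 ± 0.13 (adjusted p 0.0379). The chaperone Hspa5 stood at -0.81 ± 0.16 (adjusted p 0.00153) and the oxidase Loxl2 at -0.50 ± 0.16 (adjusted p 0.0958), both lower in HL60 late. For Plod2, Lox, Loxl4, Pcolce2 and Kdelr2 every HL60 late library lay above every ML1 late library, for Hspa5 every one lay below, and for Loxl2 the groups overlapped. The median was 0.09. Cell type markers moved in the same comparison, with 9 of 10 osteoblast and 9 of 14 chondrocyte markers higher in HL60 late, 0 of either lower and 0 of 10 CAR stroma markers called, at medians of 1.89, 2.04 and -0.02; their part in the differences was not tested. Kdelr2 lost its HL60 late against ML1 late call without HL60 late replicates 397 and 399 or ML1 late replicates 581 and 582, at log2 fold changes of 0.38, 0.42, 0.46 and 0.41 and adjusted p of 0.262, 0.167, 0.116 and 0.179. Loxl2 lost its HL60 late against ML1 late call without HL60 late replicates 397 and 398 or ML1 late replicates 581 and 583, at log2 fold changes of -0.55, -0.36, -0.41 and -0.41 and adjusted p of 0.134, 0.507, 0.392 and 0.412. With libraries brought to the same total 3 members were higher and 2 lower, without a share of all genes on that scale beside them.

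Levels were compared between members per kilobase of exon, in normalized counts taken off the log scale, for 40 of the 41 (the annotation breaks Mia3 into pieces and it was left out). In ctrl the highest was Serpinh1 at 3498 (range of 3 libraries 3076 to 3956), followed by Lox at 2996 (2878 to 3171), Pcolce at 2996 (2883 to 3082) and Hsp90b1 at 2965 (2662 to 3443). The ranges of these 4 neighbors overlap, so their order is within the spread. Kdelr2 came 5th at 2307 (2217 to 2414), Plod2 8th at 1306, Loxl1 33rd at 161, Pcolce2 37th at 119.6, Ddit3 39th at 74.5 and P4ha3 last at 4.10. In ML1 late Hsp90b1 at 4159 and Hspa5 at 2939 held the first places, and Plod2 came 20th at 327. Loxl1 came 14th in HL60 late at 535 and 13th in ML1 late at 492. Serpinh1 read 1691 in HL60 late and 1575 in ML1 late.

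The clients of these enzymes, 19 fibrillar, network and associated collagens, moved by larger steps than most members and in both directions: 5 higher and 11 lower in HL60 late and 6 higher and 11 lower in ML1 late, at median log2 fold changes of -1.53 and -2.59, where 6.46% of all genes rose and 7.24% fell in HL60 late and 9.89% and 12.1% in ML1 late. Their summed level, in units of 1000 normalized counts, was 2049, 2138 and 2651 in ctrl, 806, 808 and 662 in HL60 late and 272, 179.5 and 218 in ML1 late. Their early sums were 1699.7, 1975 and 1994 in HL60 ch-, 1859, 2128 and 2187 in ML1 ch-, 1625, 1449 and 1457 in HL60 ch+ and 1554, 1462 and 1712 in ML1 ch+. Col1a1, a chain of type I collagen, was the most abundant gene of the list in all 21 libraries, and the late sums lay below all ctrl sums. Among those that rose were the basement membrane chain Col4a1 at 1.37 (adjusted p 2.94e-09) and 1.87 (4.78e-13) and the microfibril chains Col6a1 at 1.13 (adjusted p 1.52e-06) and 1.90 (1.62e-11) and Col6a2 at 1.11 (adjusted p 9.61e-06) and 1.88 (1.99e-10), in HL60 late and ML1 late. Among those that fell were the cartilage chains Col9a3 at -2.81 (adjusted p 0.00972) and -5.43 (1.29e-06), Col2a1 at -2.95 (adjusted p 2.33e-08) and -4.93 (7.69e-14) and Col9a1 at -2.90 (adjusted p 0.00326) and -4.85 (1.97e-06), and the bone chains stood with Col1a1 at -1.67 (adjusted p 1.39e-08) and -4.17 (3.82e-18). In the ch+ groups the list had 3 higher and 10 lower in HL60 and 2 higher and 11 lower in ML1, at medians of -0.45 and -0.44. Of all genes tested, 2.87% rose and 2.46% fell in HL60 ch+, and 3.47% rose and 3.22% fell in ML1 ch+. In the ch- groups the list had 0 higher and 2 lower in HL60 and 0 higher and 3 lower in ML1. There 0.894% of all genes rose and 0.678% fell in HL60, and 1.42% rose and 0.925% fell in ML1. Rescaled, the late counts were 7 higher and 10 lower in HL60 and 8 higher and 10 lower in ML1.

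Of other genes that process collagen, 15 of 17 were tested, with 0 higher and 6 lower in HL60 late and 1 higher and 6 lower in ML1 late, at medians of -0.33 and -0.31 (40% lower in each). All genes tested, for this and the next 3 lists, had 6.46% higher and 7.24% lower in HL60 late and 9.89% and 12.1% in ML1 late. Those called down in both include the galactosyltransferase Colgalt2 at -1.71 (adjusted p 0.00442) and -3.23 (4.13e-07), the collagen-binding matrix protein Sparc at -1.30 (adjusted p 3.05e-09) and -2.77 (1.84e-17) and the convertase Pcsk5 at -1.04 (adjusted p 0.00187) and -2.14 (1.86e-08). The translocon and glycosylation list of 25 genes, which feeds new chains into the ER, had 0 higher and 8 lower in HL60 late and 0 higher and 9 lower in ML1 late, at medians of -0.40 and -0.56 (32% and 36% lower). Its examples are the translocon-associated subunits Ssr4 at -0.82 (adjusted p 0.0239) and -1.10 (0.00103) and Ssr2 at -0.59 (adjusted p 0.0475) and -0.86 (0.00138) and the oligosaccharyltransferase subunit Ost4 at -0.73 (adjusted p 0.0138) and -1.12 (9.15e-05). The 23 other COPII and cargo receptor genes had 0 higher and 9 lower in HL60 late and 0 higher and 12 lower in ML1 late, at medians of -0.41 and -0.48 (39.1% and 52.2% lower), with the exit-site scaffold Sec16b at -1.06 (adjusted p 0.0272) and -1.86 (4.53e-05), the outer coat Sec31a at -0.63 (adjusted p 0.000726) and -0.91 (2.06e-06) and the cargo lectin Lman1 at -0.62 (adjusted p 0.00211) and -0.90 (8.17e-06). The other unfolded protein response list, 27 of 29 tested, had 1 higher and 3 lower in HL60 late and 3 higher and 2 lower in ML1 late, at medians of -0.02 and -0.01, shares of 3.7% and 11.1% and of 11.1% and 7.41%, near those of all genes; the sensor Atf6 at 0.90 (adjusted p 0.000234) and 1.03 (1.49e-05) rose and the degradation factor Selenos at -0.59 (adjusted p 0.0860) and -0.59 (0.0579) fell in both. Rescaled, the late counts had more higher and fewer lower calls: 2 higher and 4 lower and 6 higher and 4 lower for collagen processing, 3 higher and 0 lower and 8 higher and 0 lower for the translocon, 5 higher and 0 lower and 10 higher and 1 lower for COPII, and 10 higher and 1 lower and 20 higher and 0 lower for the unfolded protein response, in HL60 and ML1 late. In the ch+ groups the 4 lists had at most 2 calls in either direction. Among all genes 2.87% rose and 2.46% fell in HL60 ch+, and 3.47% rose and 3.22% fell in ML1 ch+.

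Marker lists give the RNA of genes that mark cell types, and their part in the members' changes was not tested. The paper finds genes such as Lepr and Cxcl12 similarly expressed in Nes-low and Lepr+ stroma. It also places cartilage and bone genes in clusters that are high in Nes-low cells. The CAR, chondrocyte and osteoblast lists need therefore not mark cells other than the sorted ones. Before the sort, magnetic beads against CD45 were to remove blood cells of both species, and what remained was stained for CD45, for the red cell antigen Ter119 and for the endothelial antigen CD31. Sums run over each whole list in units of 1000 normalized counts. Chondrocyte markers summed to 236, 135 and 166 in ctrl, 33.8, 34.2 and 23.9 in HL60 late and 8.06, 6.77 and 5.83 in ML1 late. Chondrocyte markers in the early libraries summed to 148, 145 and 90.5 in HL60 ch-, 131, 108 and 97.8 in ML1 ch-, 75.5, 57.9 and 54.8 in HL60 ch+ and 57.3, 45.4 and 61.3 in ML1 ch+. The sums step down from ctrl to ch+ to HL60 late to ML1 late with no overlap, and 14 of 14 tested markers (15 listed, Matn1 under the filter) fell in both late and both ch+ groups, at median log2 fold changes of -2.64 and -4.46 in HL60 and ML1 late and -3.32 and -3.70 in HL60 and ML1 ch+. The step from ch+ to HL60 late is thus one of the sums, in which abundant genes weigh most, and the median marker stood lower in HL60 ch+ than in HL60 late. Col2a1 or Col11a1 was its most abundant gene, and 7 of the 15 are collagens that the client list also holds. In ch- 0 and 1 of them fell in HL60 and ML1 (limma; at an unadjusted p under 0.05, 1 and 5), and 12 and 14 fell in ch+ against ch-. Osteoblast markers summed to 129.6, 125 and 139 in ctrl, 68.9, 79.6 and 52.2 in HL60 late and 34.7, 28.7 and 25.0 in ML1 late. Osteoblast markers in the early libraries summed to 106, 124 and 123 in HL60 ch-, 121, 121 and 143 in ML1 ch-, 108, 97.9 and 98.2 in HL60 ch+ and 98.0, 101 and 107 in ML1 ch+. Late sums lay below ctrl, and all 10 were tested with 1 higher and 7 lower in HL60 late, 0 higher and 9 lower in ML1 late, and 2 lower in each ch+ group. Bglap or Bglap2 led the list in most libraries and Spp1 in the late ones. CAR stroma markers (CXCL12-abundant reticular cells) summed to 76.3, 48.9 and 55.9 in ctrl, 125, 147 and 119 in HL60 late and 123, 126 and 139.8 in ML1 late. CAR stroma markers in the early libraries summed to 76.3, 52.1 and 78.4 in HL60 ch-, 71.9, 99.1 and 93.4 in ML1 ch-, 106, 84.2 and 98.2 in HL60 ch+ and 120.5, 125 and 90.0 in ML1 ch+. Late sums lay above ctrl, and of 10 tested 9 rose in each late group, 5 and 7 in HL60 and ML1 ch+, and 0 and 5 in ch-. Cxcl12 was the top gene in all 21 libraries. Rescaled, the chondrocyte counts in the late groups were 0 higher and 13 lower and 0 higher and 14 lower, osteoblast 2 higher and 5 lower and 1 higher and 8 lower, and CAR 10 higher and 0 lower and 10 higher and 0 lower.

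Smooth muscle markers summed to 18.1, 29.5 and 13.3 in ctrl, 9.89, 8.26 and 10.4 in HL60 late and 9.40, 5.81 and 7.64 in ML1 late. Smooth muscle markers in the early libraries summed to 13.4, 17.1 and 11.6 in HL60 ch-, 11.8, 12.2 and 9.12 in ML1 ch-, 6.37, 4.92 and 4.38 in HL60 ch+ and 4.47, 4.39 and 3.42 in ML1 ch+. All 9 were tested, with 4 and 6 lower in HL60 and ML1 late and 7 and 6 lower in the ch+ groups; Mylk or Myh11 led. Myeloid markers summed to 0.488, 0.278 and 0.654 in ctrl, 0.213, 0.271 and 0.142 in HL60 late and 0.122, 0.204 and 0.213 in ML1 late. Myeloid markers in the early libraries summed to 2.05, 1.95 and 1.67 in HL60 ch-, 1.94, 2.54 and 3.41 in ML1 ch-, 1.92, 2.79 and 1.25 in HL60 ch+ and 2.74, 1.37 and 3.03 in ML1 ch+. Of 9 tested of 10 (Csf1r under the filter), 8 and 9 rose in HL60 and ML1 ch+, 6 and 9 rose in ch-, and 1 and 3 fell in the late groups; Lyz2 led in most libraries. Red cell markers summed to 0.326, 0.429 and 0.691 in ctrl, 0.123, 0.0958 and 0.0922 in HL60 late and 0.0917, 0.0890 and 0.0983 in ML1 late. Red cell markers in the early libraries summed to 7.46, 7.66 and 4.92 in HL60 ch-, 7.18, 10.1 and 7.72 in ML1 ch-, 8.56, 12.6 and 4.23 in HL60 ch+ and 11.5, 5.82 and 8.18 in ML1 ch+. All 7 were tested, with 6 and 7 higher in ch+ and the same numbers in ch-, and 4 lower in each late group; Hbb-bs led in most libraries. Skeletal muscle markers summed to 0.123, 0.0564 and 0.0515 in ctrl, 0.0371, 0.0352 and 0.0370 in HL60 late and 0.0343, 0.0369 and 0.0356 in ML1 late. Skeletal muscle markers in the early libraries summed to 0.197, 0.0842 and 0.319 in HL60 ch-, 0.179, 0.139 and 0.215 in ML1 ch-, 0.313, 0.150 and 0.188 in HL60 ch+ and 0.309, 0.483 and 0.608 in ML1 ch+. Of 4 tested of 7 (Myh1, Myh4 and Tnnc2 under the filter), 2 and 3 rose in ch+ and 1 fell in each late group; Acta1 led in most libraries. Endothelial markers summed to 0.240, 0.286 and 0.345 in ctrl, 0.385, 0.338 and 0.251 in HL60 late and 0.218, 0.217 and 0.286 in ML1 late. Endothelial markers in the early libraries summed to 0.195, 0.171 and 0.413 in HL60 ch-, 0.325, 0.321 and 0.402 in ML1 ch-, 0.528, 0.463 and 0.513 in HL60 ch+ and 0.366, 0.229 and 0.232 in ML1 ch+. Of 5 tested of 6 (Tie1 under the filter), 0 and 3 fell in HL60 and ML1 late and 0 were called in either ch+ group (limma; at an unadjusted p under 0.05, 0 in HL60 late, 1 in HL60 ch+ and 0 in ML1 ch+); Cdh5 or Flt4 led. B and plasma cell markers were all under the filter (0 of 4 tested), with sums of 0.00217 to 0.00317 led by Cd79a; Jchain averaged -2.32 on the log2 scale, near the table's lowest value of -2.33. Nes, the gene behind the sort, read 7.14, 7.61 and 7.43 in ctrl, 7.38, 6.73 and 6.66 in HL60 late and 7.87, 7.34 and 7.84 in ML1 late. Nes in the early libraries read 7.41, 7.03 and 7.40 in HL60 ch-, 7.57, 7.01 and 7.49 in ML1 ch-, 7.30, 7.65 and 7.63 in HL60 ch+ and 7.28, 7.30 and 6.61 in ML1 ch+, and it was not called in any comparison against ctrl; rescaled, it was higher in ML1 late, at 1.10, and not called in HL60 late, at 0.10. Rescaled, the late counts were 0 higher and 2 lower and 1 higher and 2 lower for smooth muscle, 0 higher and 0 lower and 0 higher and 0 lower for myeloid, 0 higher and 4 lower and 0 higher and 4 lower for red cell, 0 higher and 0 lower and 0 higher and 0 lower for skeletal muscle, and 2 higher and 0 lower and 2 higher and 0 lower for endothelial markers.

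**Figure D3:**
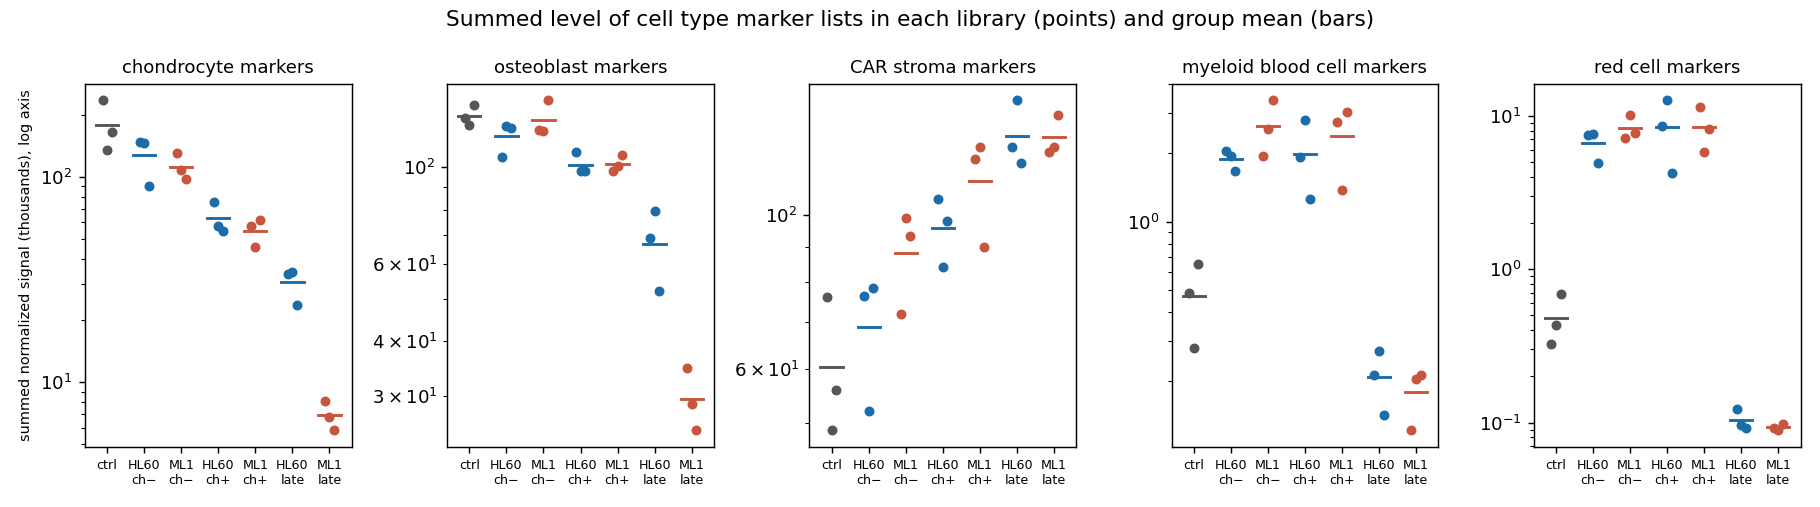
Summed level (vertical axis, units of 1000 normalized counts, log scale) of 5 marker lists in each of the 21 libraries by group (horizontal axis), with a point for each library. Chondrocyte sums are 236, 135 and 166 in ctrl and 8.06, 6.77 and 5.83 in ML1 late, CAR sums 76.3, 48.9 and 55.9 and 123, 126 and 139.8, and the myeloid and red cell lists are high in the 4 early groups.

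The promoters of the members were searched for motifs of the unfolded protein response, in windows of 300 bases (250 before the start and 50 from it on) from RefSeq on GRCm38.p6. Of the 41 members 32 matched an entry; P3h4, Plod2, Fkbp10, Lox, Loxl1, Loxl2, Loxl3, Bmp1 and Kdelr2 did not. The ER stress element (ERSE), CCAAT and CCACG with 9 bases between, searched on both strands like all motifs here, stands in 0.119% of the 32851 promoter windows and in 5 of the 7 general chaperones and isomerases, Hspa5, Hsp90b1, Calr, Canx and Pdia6, and in 0 of the 25 other members with an entry. The related element of ATTGG and CCACG with 1 base between stands in 0.0365% of windows and, among members, in Herpud1. The core TGACGTG stands in 2.01% of windows; members that hold it include Sec24d, Mia3, Kdelr3, Fkbp11 and Hspa5. CCAAT alone, which the long element contains, stands in 37.4% of windows and in 7 of 7 chaperones and isomerases. Windows of 10 members are shown; Hspa5 holds both the long element and the core, and Calr, Canx and Pdia6 hold the long element and were not called in either late group. No difference between the roles was tested. Capitals mark the motif or its reverse complement, and a match is only a description of the letters.
Hspa5 (chr2:34772010-34772058, plus strand): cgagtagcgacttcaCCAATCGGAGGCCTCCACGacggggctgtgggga
Hsp90b1 (chr10:86705623-86705671, minus strand): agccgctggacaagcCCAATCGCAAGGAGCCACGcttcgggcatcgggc
Calr (chr8:84847060-84847108, minus strand): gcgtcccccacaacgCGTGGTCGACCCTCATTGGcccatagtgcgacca
Canx (chr11:50325785-50325833, minus strand): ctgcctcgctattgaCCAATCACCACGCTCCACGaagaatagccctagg
Pdia6 (chr12:17266476-17266524, plus strand): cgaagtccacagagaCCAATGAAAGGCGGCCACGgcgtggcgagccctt
Herpud1 (chr8:94386362-94386402, plus strand): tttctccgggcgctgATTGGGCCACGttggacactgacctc
Fkbp11 (chr15:98727606-98727642, minus strand): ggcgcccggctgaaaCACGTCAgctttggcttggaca
Sec24d (chr3:123267455-123267491, plus strand): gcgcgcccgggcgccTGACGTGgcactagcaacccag
Mia3 (chr1:183369630-183369666, minus strand): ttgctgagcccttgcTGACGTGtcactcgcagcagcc
Kdelr3 (chr15:79516364-79516400, plus strand): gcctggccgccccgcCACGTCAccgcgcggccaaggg

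Outside the members, the same long element stands in 5 of the 24 other unfolded protein response genes with an entry, Syvn1, Derl3, Creld2, Dnajc3 and Ero1b, and in 0 of the 14 client collagens, 13 other collagen processing, 20 translocon and 21 other COPII genes with an entry. The members lie on 16 chromosomes, 6 of them on chromosome 11 and 5 on chromosome 9. P3h4 (chr11:100408456-100414836, GRCm38) and Fkbp10 (chr11:100415697-100424824) are neighbors there, and both fell in both late groups.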

How the data were processed

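The deposited table holds regularized log2 values of normalized counts, which the authors made with STAR 2.5.1b, RSEM 1.2.29 and, per the labels, DESeq2 1.10.1 on mm10. The methods name a later version of the last tool and speak of log10, but values from -2.33 to 22.44 are read as log2; they were used as they are, so no pseudocount was needed. Libraries were grouped by their titles, with 3 per group and no pairing. Genes with a mean of at least 3.32 (log2 of 10 normalized counts) were fitted with limma 3.58.1 (R 4.3.3; 7 groups, mean-variance trend, two-sided, Benjamini-Hochberg within each of 12 comparisons, adjusted p under 0.1). Tables and plots used Python 3.11.15, pandas 2.3.3 and matplotlib 3.10.9. Members and lists were chosen with earlier results of these data known. All 41 members are named; values in every library are given for the 2 of each role with the largest mean absolute late change and for Serpinh1, Hspa5, Xbp1 and Ddit3. Pathway examples are up to 3 in each direction called in both late groups, and Col1a1 is given in addition to these. Alternatives tried were other filters, thresholds, normalizations and scalings, sample weights, no trend, pooled lines, only the groups compared, and leaving out each library. Rescaling without the most abundant rRNA gene and pairing ch+ with ch- libraries by number order were chosen after seeing the data. Depth per library is not in the file. The code was tested on simulated data.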

Additional observations from a re-analysis of the deposited data

Results flagged for a closer look

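The members below stand out because the late groups of the lines differed when the difference itself was tested (limma, HL60 late minus ML1 late, log2, ± SE, 3 libraries against 3). Line cannot be told apart here from whatever else differed between the sets of mice. Plod2 was higher in HL60 late, at 1.01 ± 0.13 (adjusted p 2.62e-06). Lox was higher at 0.54 ± 0.11 (adjusted p 0.00232). Loxl4 was higher at 0.96 ± 0.20 (adjusted p 0.00305). Pcolce2 was higher at 2.36 ± 0.44 (adjusted p 0.000765). Kdelr2 was higher at 0.46 ± 0.13 (adjusted p 0.0379). Hspa5 was lower in HL60 late, at -0.81 ± 0.16 (adjusted p 0.00153). Loxl2 was lower at -0.50 ± 0.16 (adjusted p 0.0958). Of the cell type markers, 9 of 10 for osteoblasts and 9 of 14 for chondrocytes were higher in HL60 late as well, and their part in these differences was not tested.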

How the results depend on the processing

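Of the 102 called values of single members, 102 kept direction and call with a filter of 50 normalized counts, 94 under quantile normalization, 92 with sample weights, 90 with only the groups compared, 82 without a filter, 81 at adjusted p under 0.05, 69 without a trend and 35 when a fold change of 1 or more on the log2 scale was also required; all others there lost the call and none reversed. Pooling the lines kept 84 of 95. Leaving out each library kept 483 of 612 values, with 129 below the threshold and 0 reversed. With every library brought to the same total, 41 of 102 kept their call, 41 lost it and 20 reversed: in HL60 late against ctrl P4hb to 0.20, Crtap to 0.040, Fkbp10 to 0.017 and Pcolce to 0.16, in ML1 late against ctrl P4hb to 0.36, Plod1 to 0.18, Loxl2 to 0.31, Pcolce to 0.18, Bmp1 to 0.35, Sec24d to 0.088 and Mia3 to 0.32, in ML1 late against ch+ P4hb to 0.40, Crtap to 0.17, Serpinh1 to 0.019, Fkbp10 to 0.24, Fkbp14 to 0.22, Loxl2 to 0.32, Pcolce to 0.30, Sec24d to 0.28 and Mia3 to 0.29. With the same scaling but without the most abundant rRNA gene, 54 of 102 kept their call, 35 lost it and 13 reversed: in HL60 late against ctrl P4hb to 0.064 and Pcolce to 0.023, in ML1 late against ctrl P4hb to 0.13, Loxl2 to 0.080, Bmp1 to 0.13 and Mia3 to 0.088, in ML1 late against ch+ P4hb to 0.21, Fkbp10 to 0.056, Fkbp14 to 0.040, Loxl2 to 0.14, Pcolce to 0.12, Sec24d to 0.10 and Mia3 to 0.11. These reversals follow from the shift of all genes that the scaling adds. Relative to it each member kept its sign, which a common shift fixes in advance, so it is no test of the calls. With a log2 step of 1 or more required, the number of members called was 1 in HL60 ch+ against ctrl, 0 in HL60 ch+ against ch-, 7 in HL60 late against ctrl, 3 in HL60 late against ch+, 2 in HL60 late against ML1 late, 1 in ML1 ch+ against ctrl, 15 in ML1 late against ctrl and 6 in ML1 late against ch+. At adjusted p under 0.05 it was 3 in HL60 ch+ against ctrl and 3 in ML1 ch+ against ctrl. With HL60 and ML1 pooled in 4 groups, the number of members called was 0 in ch+ against ch- and 22 in late against ch+, both lines together, where HL60 alone had 1 and 12. Without a filter on low values it was 4 in HL60 ch+ against ctrl. Without the trend it was 2 in HL60 ch+ against ctrl, 0 in HL60 ch+ against ch-, 7 in HL60 late against ch+, 4 in HL60 late against ML1 late and 3 in ML1 ch+ against ctrl. With only the groups compared it was 4 in HL60 ch+ against ctrl, 2 in HL60 ch+ against ch-, 1 in ML1 ch- against ctrl and 2 in ML1 ch+ against ctrl. Under quantile normalization it was 2 in HL60 ch+ against ch-. With libraries brought to the same total, the number of members called was 3 in HL60 ch+ against ctrl and 1 in ML1 ch- against ctrl. Without the rRNA gene it was 4 in HL60 ch+ against ctrl. With sample weights the number was 3 in HL60 ch+ against ctrl, 11 in HL60 late against ML1 late and 2 in ML1 ch+ against ctrl. With a replicate block that pairs ch+ and ch- libraries in the order of their numbers, 1 member was called in HL60 ch+ against ch-, 0 in ML1 ch+ against ch- and 0 in their difference, as without the block; deviations of the libraries so paired from their group means correlated at -0.021 to 0.046, so the data do not show that the order marks pairs. Leaving out 1 library, it ranged from 0 to 0 in HL60 ch- against ctrl, from 3 to 7 in HL60 ch+ against ctrl, from 0 to 1 in HL60 ch+ against ch-, from 16 to 21 in HL60 late against ctrl, from 6 to 12 in HL60 late against ch+, from 5 to 7 in HL60 late against ML1 late, from 0 to 0 in HL60 against ML1 in ch+ against ch- difference, from 0 to 1 in ML1 ch- against ctrl, from 2 to 6 in ML1 ch+ against ctrl, from 0 to 0 in ML1 ch+ against ch-, from 23 to 27 in ML1 late against ctrl and from 15 to 19 in ML1 late against ch+. Except where the scaling itself shows it, the cause was not tested. The methods give a typical read yield, but depth per library is not in the file, so its limit on low genes such as P4ha3 and Ddit3 could not be computed.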
